A study of Mus musculus with 4 samples.

Results

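The transcripts described here are those of 10 genes of the circadian clock, the transcriptional feedback loop that gives most cells a daily rhythm: Arntl (also called Bmal1), Clock, Per1, Per2, Per3, Cry1, Cry2, Nr1d1, Nr1d2 and Dbp. They were taken as every probe whose gene name in the array's design is one of these symbols, which gave 18 of 41174 non-control probes, or 10 of 27597 genes and named transcripts. Skeletal muscle of 10-week-old mice that fed ad lib was profiled on 1-colour Agilent arrays in 4 genotypes: ob/ob TBP-2-/-, ob/ob, TBP-2-/- and WT. The ob/ob genotype lacks functional leptin and gives obese mice, and TBP-2 is thioredoxin-interacting protein, the product of Txnip. There was 1 array per genotype, with all 4 on 1 slide read in 1 scan. A single pair of arrays therefore has no replicate check, and differences between pairs are given without p-values. The labels do not give the time of day at which muscle was taken, the muscle, the strain, the sex, whether an RNA came from 1 mouse or a pool, or which part of Txnip is missing. For clock transcripts, which vary over the day, time of collection and genotype cannot be told apart here. The genotype field of the ob/ob sample is spelled Tob/ob, and its title, ob/ob, was used.

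The muscle clock runs on a pair of activators, BMAL1 (from Arntl) and CLOCK, which bind E-box sequences and switch on the Per and Cry genes, whose proteins then inhibit the activators. In a second loop the nuclear receptors REV-ERB alpha and beta (Nr1d1 and Nr1d2) repress Arntl, and the related ROR receptors activate it through the same DNA elements. DBP, itself an E-box target, binds D-box elements and drives many daily output genes. In mouse skeletal muscle, Arntl peaks at the opposite phase of the day to Nr1d1 and Dbp.

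Levels are log2 of the background-subtracted probe intensity minus the array's 75th percentile, so a level of 0 is the 75th percentile of that array. A gene is represented by its brightest probe, and levels of different genes are not set against each other. All 10 brightest probes were well above background on all 4 arrays, as were 16 of the 18 member probes, so no clock gene was lost to a filter on dim values. The error given with a difference between arrays comes from the scanner software's error model, lay between 0.20 and 0.26 on the log2 scale for the brightest member probes, and covers the technical error of a spot only. Txnip itself had intensities of 166 in ob/ob TBP-2-/- and 868 in TBP-2-/- muscle, against 13142 in ob/ob and 13209 in WT muscle. It was low on both arrays labelled as lacking TBP-2, although whether its probe lies in the deleted part is not known. Between 22677 and 24222 probes per array were well above background, between 59 and 110 spots per array were outliers and left out, and 0 spots were saturated.

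Arntl, Per1, Per3 and Cry1 had differences described below. Promoters of these 4 members are shown because they also carry matches to sequence elements used by clock proteins. They are RefSeq sequences of GRCm38.p6, from 250 bases before to 50 bases after an annotated start, on the gene's strand, with matched elements in capitals: the ROR core of Arntl, the E-box and ROR core of Per1, both D-boxes of Per3, and the E-prime box and E-box of Cry1. The windows are chr7:113207261-113207560 (+) for Arntl, chr11:69098699-69098998 (+) for Per1, chr4:151044616-151044915 (-) for Per3 and chr10:85185005-85185304 (-) for Cry1.
Arntl: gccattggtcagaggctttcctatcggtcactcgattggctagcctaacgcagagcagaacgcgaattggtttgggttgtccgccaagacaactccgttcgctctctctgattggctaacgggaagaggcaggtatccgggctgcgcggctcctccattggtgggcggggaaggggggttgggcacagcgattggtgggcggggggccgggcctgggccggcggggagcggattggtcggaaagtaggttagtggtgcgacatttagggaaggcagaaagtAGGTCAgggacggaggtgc
Per1: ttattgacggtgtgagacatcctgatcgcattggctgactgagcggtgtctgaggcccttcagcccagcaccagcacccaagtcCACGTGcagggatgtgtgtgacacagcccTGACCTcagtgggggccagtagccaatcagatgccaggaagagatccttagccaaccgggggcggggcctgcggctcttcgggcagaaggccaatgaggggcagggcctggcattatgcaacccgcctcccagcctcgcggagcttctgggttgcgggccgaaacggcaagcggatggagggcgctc
Per3: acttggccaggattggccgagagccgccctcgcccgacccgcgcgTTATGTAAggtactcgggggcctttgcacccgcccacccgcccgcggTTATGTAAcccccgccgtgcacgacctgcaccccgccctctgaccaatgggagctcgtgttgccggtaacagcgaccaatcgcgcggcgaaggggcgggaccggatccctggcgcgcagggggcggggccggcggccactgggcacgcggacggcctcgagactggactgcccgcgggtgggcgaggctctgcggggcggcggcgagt
Cry1: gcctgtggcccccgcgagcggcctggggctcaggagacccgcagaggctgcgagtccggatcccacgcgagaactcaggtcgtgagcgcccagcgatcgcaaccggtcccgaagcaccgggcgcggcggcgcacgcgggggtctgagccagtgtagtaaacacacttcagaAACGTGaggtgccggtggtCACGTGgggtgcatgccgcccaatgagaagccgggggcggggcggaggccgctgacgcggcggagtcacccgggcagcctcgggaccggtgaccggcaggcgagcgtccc

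Windows were found for 9 of the 10 members, 13 in all because Arntl, Clock and Per1 have several starts; Per2 is named only. Both strands were searched for the E-box CACGTG, the E-prime box CACGTT, the D-box TTATGTAA or TTACGTAA, the ROR core AGGTCA or GGGTCA, and the cyclic AMP response element TGACGTCA, and no matches overlapped. The E-box was in 2 members, Per1 at -166 and Cry1 at -60 from the start, against 7.15% of 32851 promoter windows of the same length. The E-prime box was in 3 members, Cry1 at -79, Cry2 at -166 and Nr1d1 at -28, against 4.68% of all windows. The D-box was in 1 member, Per3, at -205 and again at -158, against 1.06% of all windows. The ROR core was in 4 members, Arntl at 32 after the start, Clock at -119, Per1 at -137 and Nr1d2 at -77, against 27.5% of all windows. The cyclic AMP response element was in 0 members, against 1.79% of all windows. A member counts if any of its windows matched, whereas the shares are per window, so the counts and shares are unlike units. The Arntl, Clock and Per1 matches each lay in 1 of that gene's windows. The Dbp window had 0 matches, as did the Arntl and Per1 windows that are not shown. A match is a description of these letters and not a shown binding site.

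Arntl, which encodes the activator BMAL1 and is the one clock gene whose loss alone stops the clock in mice, was lower without TBP-2 on both backgrounds. Its probe (mm8 chr7:113104645-113104704, + strand; the gene spans chr7:113178471-113314126 in GRCm38) had intensities of 239 in ob/ob TBP-2-/- muscle, 522 in ob/ob, 215 in TBP-2-/- and 328 in WT muscle. On the scaled log2 level these were -0.13, 0.76, -0.51 and 0.23, so both arrays without TBP-2 lay below both arrays with it, and ob/ob lay highest. The log2 difference was -0.88 ± 0.20 for ob/ob TBP-2-/- minus ob/ob (1.85-fold lower) and -0.74 ± 0.20 for TBP-2-/- minus WT (1.67-fold lower). These comparisons share no array. Of 14906 genes measured on all 4 arrays, 44 (0.295%) were as low or lower than Arntl in both. The ob/ob genotype went with higher Arntl, by 0.53 ± 0.20 for ob/ob minus WT and 0.39 ± 0.20 for ob/ob TBP-2-/- minus TBP-2-/-. Arntl has 1 probe on the array, so no second probe could check these values.

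Clock, which encodes the DNA-binding partner of BMAL1, differed most between ob/ob TBP-2-/- and TBP-2-/- muscle. Its level was 1.5 in ob/ob TBP-2-/- muscle, 1.39 in ob/ob, 1.23 in TBP-2-/- and 1.30 in WT muscle, and neighbours in that order differed by no more than their error. Each of its TBP-2 differences was smaller than its error, at 0.11 ± 0.20 for ob/ob TBP-2-/- minus ob/ob and -0.07 ± 0.20 for TBP-2-/- minus WT. A dimmer probe gave 0.18 ± 0.21 and -0.17 ± 0.21 for the same comparisons. The widest difference was ob/ob TBP-2-/- minus TBP-2-/-, at 0.26 ± 0.20 on the brightest and 0.42 ± 0.21 on the dimmer probe. The remaining Clock probes were not well above background on all arrays.

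**Figure D1:**
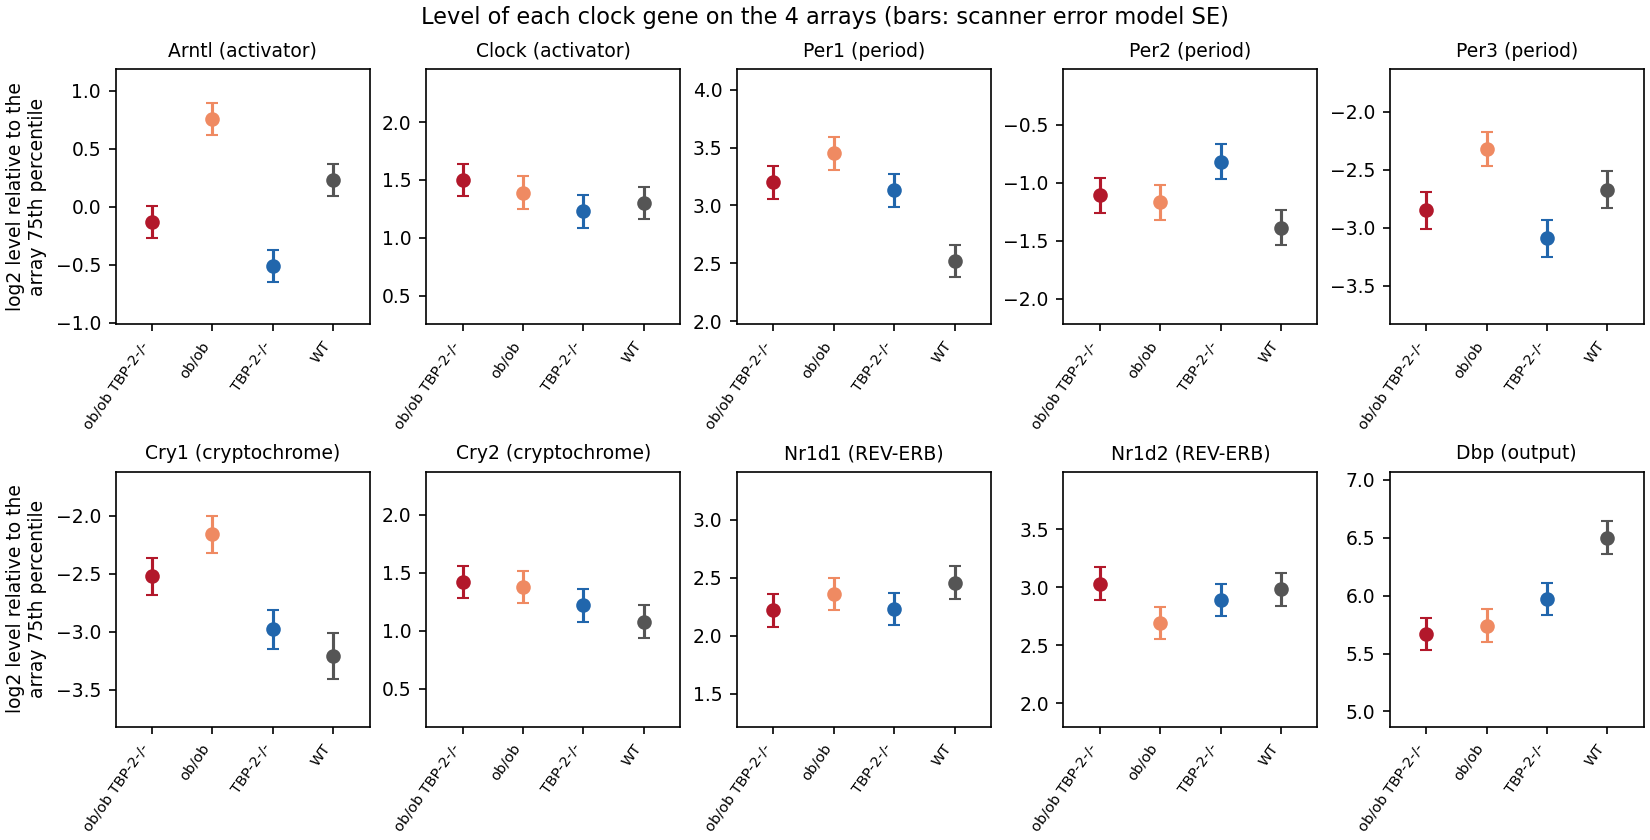
Log2 level of the brightest probe of each of the 10 clock genes (vertical axes, relative to the 75th percentile of each array) on the ob/ob TBP-2-/-, ob/ob, TBP-2-/- and WT arrays, with 1 point per array and bars for the standard error of the scanner error model. Arntl sits at -0.13 and -0.51 on the arrays without TBP-2, below 0.76 and 0.23 on the ob/ob and WT arrays, while Dbp is highest on the WT array at 6.50.

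Per1, which encodes a repressor of the activators and is also induced acutely by glucocorticoids and cyclic AMP signalling, was lowest in WT muscle. Its level was 3.20 in ob/ob TBP-2-/- muscle, 3.45 in ob/ob, 3.13 in TBP-2-/- and 2.52 in WT muscle. Both WT comparisons therefore ran upward, by 0.93 ± 0.20 for ob/ob minus WT (1.91-fold) and 0.61 ± 0.20 for TBP-2-/- minus WT (1.53-fold), and they share the WT array. The comparisons without the WT array gave small differences, at -0.25 ± 0.20 for ob/ob TBP-2-/- minus ob/ob and 0.07 ± 0.20 for ob/ob TBP-2-/- minus TBP-2-/-.

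Per2, the period gene whose loss most disturbs daily rhythms in mice, gave different patterns on its probes. The brightest probe had levels of -1.11 in ob/ob TBP-2-/- muscle, -1.17 in ob/ob, -0.82 in TBP-2-/- and -1.39 in WT muscle, highest in TBP-2-/- and lowest in WT. The dimmer probe had -3.72, -2.91, -2.98 and -2.61 in the same order, highest in WT and lowest in ob/ob TBP-2-/- muscle. For TBP-2-/- minus WT the brightest probe gave 0.57 ± 0.21 and the dimmer -0.37 ± 0.23, so the probes give no common direction there. For ob/ob TBP-2-/- minus ob/ob they gave 0.06 ± 0.21 and -0.82 ± 0.26, and for ob/ob against WT 0.22 ± 0.21 and -0.30 ± 0.23. In ob/ob TBP-2-/- minus TBP-2-/- both were below 0, at -0.29 ± 0.21 and -0.74 ± 0.26.

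Per3, a period gene not needed for the core rhythm in mice, was ordered like Arntl. Its level was -2.85 in ob/ob TBP-2-/- muscle, -2.32 in ob/ob, -3.09 in TBP-2-/- and -2.67 in WT muscle, and the arrays without TBP-2 again lay below those with it. The differences were -0.53 ± 0.22 for ob/ob TBP-2-/- minus ob/ob and -0.42 ± 0.23 for TBP-2-/- minus WT, nearer to their error than those of Arntl. The ob/ob differences were 0.35 ± 0.22 against WT and 0.23 ± 0.23 for ob/ob TBP-2-/- minus TBP-2-/-. With normexp the TBP-2 differences were -0.19 and -0.18. Per3 has 1 probe.

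Cry1, a cryptochrome and strong repressor of the activators, was the one clock gene past 2-fold in any comparison, and only by its brightest probe. That probe had intensities of 45.5 in ob/ob TBP-2-/- muscle, 68.9 in ob/ob, 38.9 in TBP-2-/- and 30.2 in WT muscle, or levels of -2.52, -2.16, -2.98 and -3.21. Both ob/ob arrays lay above both lean arrays, with differences of 1.05 ± 0.25 for ob/ob minus WT (2.07-fold) and 0.46 ± 0.24 for ob/ob TBP-2-/- minus TBP-2-/-. The dimmer Cry1 probe gave 0.08 ± 0.32 and 0.31 ± 0.26 for the same comparisons, so the 2-fold difference was not seen on both probes. Its TBP-2 difference on the ob/ob background had the other sign, at 0.53 ± 0.28 against -0.36 ± 0.23 for the brightest probe.

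Cry2, the other cryptochrome repressor, had levels of 1.42 in ob/ob TBP-2-/- muscle, 1.38 in ob/ob, 1.22 in TBP-2-/- and 1.08 in WT muscle. The widest difference of this probe was 0.30 ± 0.20 for ob/ob minus WT, and the TBP-2 differences of 0.04 ± 0.20 and 0.14 ± 0.20 on the ob/ob and lean backgrounds were within their error. The dimmer Cry2 probe gave 0.00 ± 0.31 for ob/ob minus WT and, as its widest, 0.43 ± 0.29 for ob/ob TBP-2-/- minus TBP-2-/-.

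**Figure D2:**
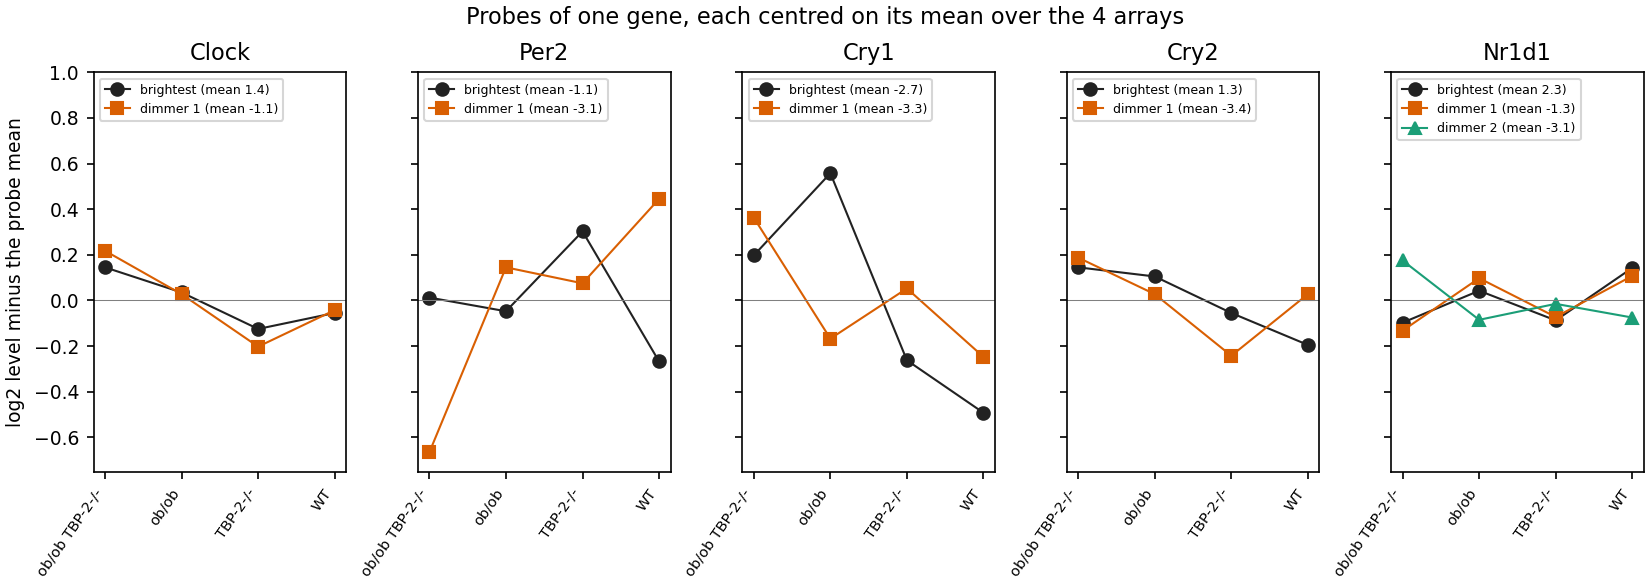
Log2 level of each probe well above background on all 4 arrays, minus that probe's mean, for the 5 clock genes with more than 1 such probe, on the ob/ob TBP-2-/-, ob/ob, TBP-2-/- and WT arrays. The Clock probes run together, while those of Per2 and Cry1 part, as in TBP-2-/- minus WT for Per2, at 0.57 on the brightest and -0.37 on the dimmer probe.

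Nr1d1 and Nr1d2, the REV-ERB repressors of Arntl, had smaller differences than Arntl in each of the 4 comparisons. Nr1d1 had levels of 2.22 in ob/ob TBP-2-/- muscle, 2.36 in ob/ob, 2.23 in TBP-2-/- and 2.46 in WT muscle. Its differences ran between -0.23 ± 0.20 for TBP-2-/- minus WT and -0.01 ± 0.20 for ob/ob TBP-2-/- minus TBP-2-/-. A second Nr1d1 probe gave -0.23 ± 0.21 for ob/ob TBP-2-/- minus ob/ob and -0.18 ± 0.21 for TBP-2-/- minus WT. The dimmest Nr1d1 probe gave 0.26 ± 0.25 and 0.06 ± 0.26. Nr1d2 had levels of 3.03 in ob/ob TBP-2-/- muscle, 2.69 in ob/ob, 2.89 in TBP-2-/- and 2.98 in WT muscle, lowest in ob/ob. Its widest differences were 0.34 ± 0.20 for ob/ob TBP-2-/- minus ob/ob and -0.28 ± 0.20 for ob/ob minus WT.

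Dbp, the D-box activator of clock output, was highest in WT muscle. Its intensity was 13284 in ob/ob TBP-2-/- muscle, 16526 in ob/ob, 19250 in TBP-2-/- and 25329 in WT muscle, or levels of 5.67, 5.74, 5.97 and 6.50. Both ob/ob arrays lay below both lean arrays, and the 2 ob/ob arrays differed by -0.07 ± 0.20, within their error. The differences were -0.76 ± 0.20 for ob/ob minus WT (1.69-fold lower), -0.53 ± 0.20 for TBP-2-/- minus WT (1.44-fold lower) and -0.30 ± 0.20 for ob/ob TBP-2-/- minus TBP-2-/-. Both WT comparisons share the WT array. With quantile normalization ob/ob minus WT was -0.48. Dbp was thus highest on the array where Per1 was lowest.

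**Figure D3:**
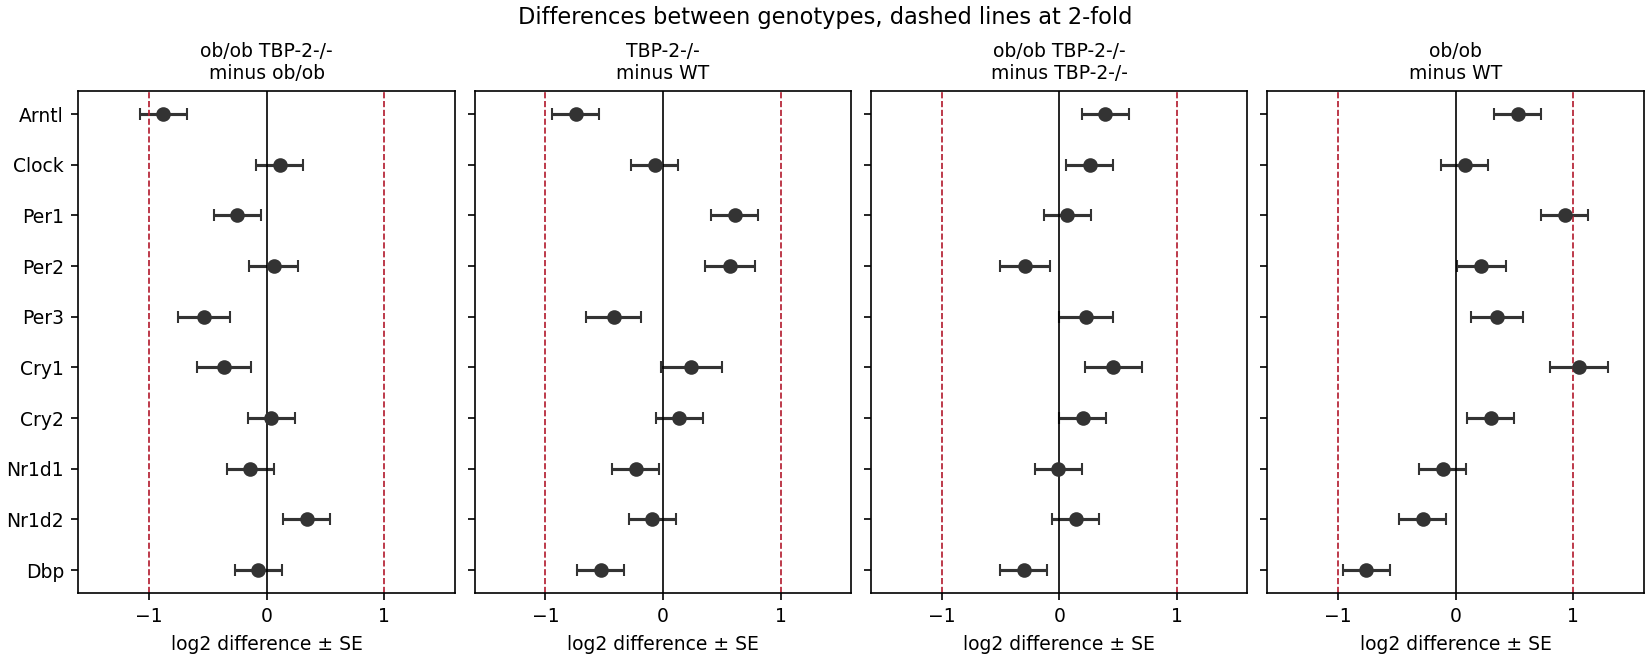
Log2 differences of the brightest probe of each clock gene in the 4 pairwise comparisons, each the first-named genotype minus the second, with bars for the standard error of the scanner error model and lines at 2-fold. Only Cry1 in ob/ob minus WT passes 2-fold at 1.05, and Arntl is below 0 in both TBP-2 comparisons at -0.88 and -0.74.

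Across the 10 genes, 0 differed 2-fold in ob/ob TBP-2-/- minus ob/ob, where 2.72% of 15459 genes measured on both arrays did. In TBP-2-/- minus WT 0 did, against 2.61% of 15220. In ob/ob minus WT 1 did, Cry1, against 3.61% of 15087. In ob/ob TBP-2-/- minus TBP-2-/- 0 did, against 3.36% of 15616. At 1.5-fold, 1 member (Arntl, lower) passed in ob/ob TBP-2-/- minus ob/ob against 10.1% of genes, and 2 (Arntl lower, Per1 higher) in TBP-2-/- minus WT against 9.20%. In ob/ob minus WT 3 passed 1.5-fold (Per1 and Cry1 higher, Dbp lower) against 13.0%, and in ob/ob TBP-2-/- minus TBP-2-/- 0 against 11.3%. Each member is 10% of the set, so these counts rest on single genes. The median difference of the members was -0.10 in ob/ob TBP-2-/- minus ob/ob (0.04 over all genes), -0.08 in TBP-2-/- minus WT (-0.07), 0.26 for ob/ob against WT (-0.05) and 0.17 in ob/ob TBP-2-/- minus TBP-2-/- (0.04).

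All 4 arrays were then fitted together with limma, with a TBP-2 effect and an ob/ob effect and 1 residual degree of freedom, so that the error is the departure from additivity shared over 16114 genes. After Benjamini-Hochberg adjustment over those genes, 0 of the 10 members passed 0.05 for either effect, against 0.0931% of genes for TBP-2 and 0.223% for ob/ob. At an unadjusted p under 0.05, 2 members passed for TBP-2 (Arntl and Per3) and 3 for ob/ob (Arntl, Cry1 and Dbp), against 9.76% and 13.5% of all genes fitted. With 1 residual degree of freedom, effects of the members' size seldom pass the adjusted threshold, so 0 calls do not show that levels were alike. The fitted TBP-2 effect on Arntl was -0.81 ± 0.16 (limma, adjusted p = 0.282), and 1.05% of genes had as low an effect. Per3 had a TBP-2 effect of -0.47 ± 0.16 (limma, adjusted p = 0.455). For ob/ob the effects were 0.75 ± 0.21 for Cry1 (adjusted p = 0.266), 0.46 ± 0.16 for Arntl (adjusted p = 0.345) and -0.53 ± 0.19 for Dbp (adjusted p = 0.348), all by limma. With background correction by normexp, Arntl passed for TBP-2 at -0.68 (limma, adjusted p = 0.0042) and Dbp for ob/ob at -0.53 (limma, adjusted p = 0.0446). Under that setting the fit called 470 and 794 genes, against 15 and 36. That fit gave all genes 1 common variance (infinite prior degrees of freedom, against 3.68 in the main fit).

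**Figure D4:**
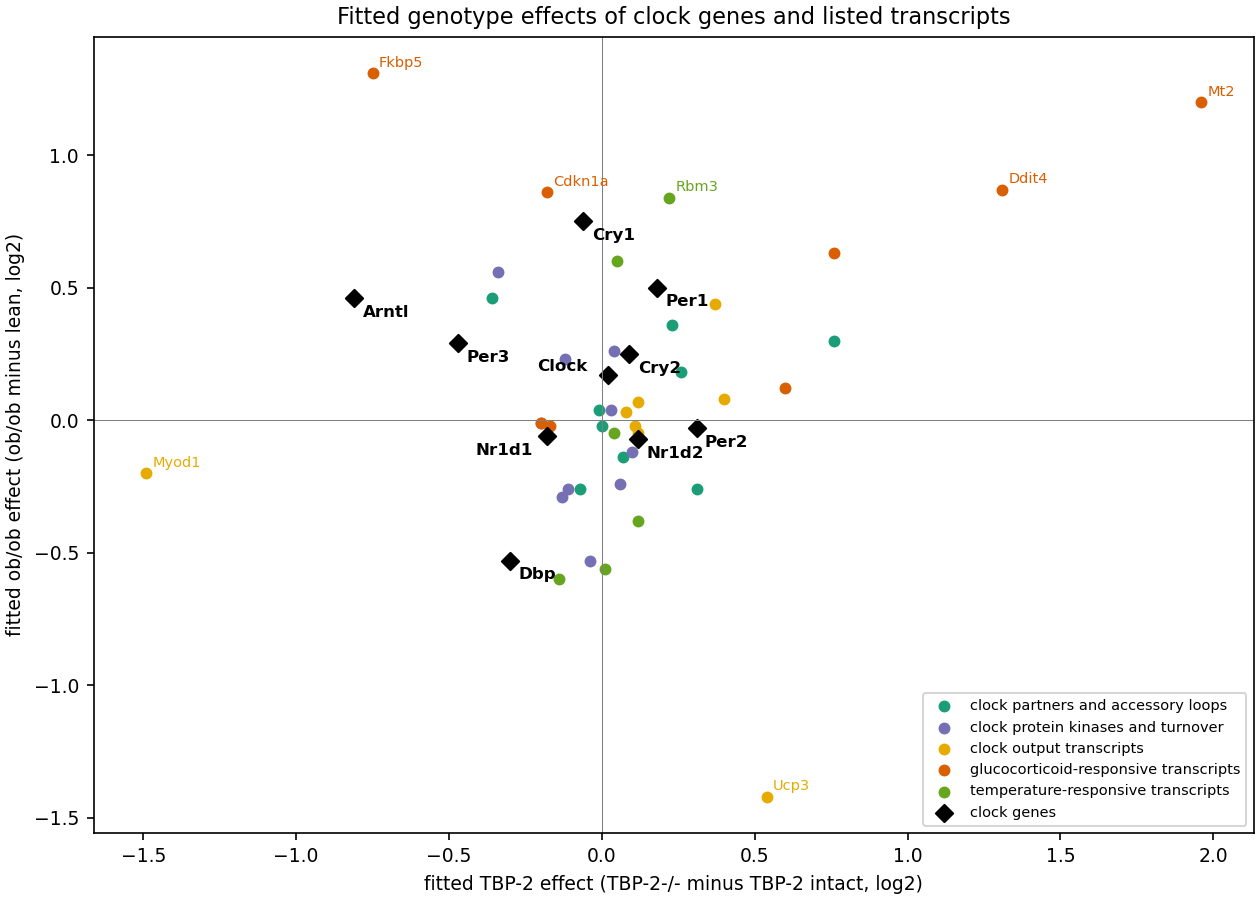
Fitted TBP-2 effect (horizontal, TBP-2-/- minus TBP-2 intact, log2) against fitted ob/ob effect (vertical, ob/ob minus lean, log2) from the additive limma fit, with clock genes as black diamonds and members of 5 gene lists as coloured dots. Arntl lies at -0.81 and 0.46, the lowest TBP-2 effect among the clock genes, and none of the points passed the adjusted threshold.

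The TBP-2 difference of a gene could be set side by side on the 2 backgrounds, as the difference on the ob/ob background minus that on the lean background. For Arntl it was -0.14 ± 0.29 and for Per3 -0.11 ± 0.32, within their error. Per1 had the largest value, -0.86 ± 0.29, its TBP-2 difference being -0.25 on the ob/ob and 0.61 on the lean background. Cry1 followed with -0.59 ± 0.35 and Per2 with -0.51 ± 0.29. Dbp at 0.45 ± 0.29 and Nr1d2 at 0.42 ± 0.29 ran the other way. The dimmer Cry1 probe had TBP-2 differences of 0.53 on the ob/ob and 0.30 on the lean background, so it did not share the sign of the brightest. The differences between backgrounds have no residual degrees of freedom and were not tested.

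Partners of the members in the second loop and the accessory loops came next. Of 12 listed, 9 were well above background on all arrays (Npas2, Arntl2 and Rorb were not), and 0 differed 2-fold in any comparison or passed the fit. Rora, which encodes a ROR activator of Arntl, had intensities of 2107 in ob/ob TBP-2-/- muscle, 3278 in ob/ob, 1850 in TBP-2-/- and 2110 in WT muscle. Its TBP-2 difference was -0.40 ± 0.20 on the ob/ob and -0.32 ± 0.20 on the lean background, the same sign as Arntl. Bhlhe41, a repressor that competes at E-boxes, differed by 0.73 ± 0.21 in ob/ob TBP-2-/- minus ob/ob and by -0.68 ± 0.21 in ob/ob minus WT, lowest in ob/ob muscle. Of 11 kinase and protein turnover genes, 10 were measured and 0 differed 2-fold or passed the fit.

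Of 10 clock output genes 8 were measured on all arrays, with 0 passing the fit. The muscle regulator Myod1, a BMAL1 and CLOCK target in mouse muscle, was the one measured gene of the list lower without TBP-2 on both backgrounds. The medians of the list were 0.13 for ob/ob TBP-2-/- minus ob/ob and 0.17 for TBP-2-/- minus WT. Among the genes above 0 in both were Tsc22d3, at 0.37 ± 0.20 in each, Tspan4, at 0.31 ± 0.20 and 0.49 ± 0.20, and Ucp3, at 0.61 ± 0.20 and 0.48 ± 0.20. The Myod1 intensity was 65.1 in ob/ob TBP-2-/- muscle, 290 in ob/ob, 117 in TBP-2-/- and 226 in WT muscle. The differences were -1.91 ± 0.07 (3.77-fold lower) for ob/ob TBP-2-/- minus ob/ob and -1.07 ± 0.07 (2.11-fold lower) for TBP-2-/- minus WT, with a smaller error because its probe is printed 10 times. Its fitted TBP-2 effect was -1.49 ± 0.25 (limma, adjusted p = 0.236). Ucp3, a mitochondrial carrier, was lower in both ob/ob muscles, at 717 in ob/ob TBP-2-/- and 556 in ob/ob, against 2148 in TBP-2-/- and 1411 in WT muscle. Myod1 and Ucp3 were the list's only genes past 2-fold.

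Glucocorticoid-responsive transcripts are given because Per1 is one of the genes that hormone induces, and leptin-deficient mice have raised corticosterone. Of 8 measured, 4 were 2-fold higher in ob/ob TBP-2-/- minus ob/ob (Ddit4, Mt1, Mt2 and Nfkbia), against 296 of 15459 genes. The other 4 were below 0 there on their brightest probes: Fkbp5 at -0.66, Klf9 at -0.38, Sgk1 at -0.19 and Cdkn1a at -0.16. In ob/ob TBP-2-/- minus TBP-2-/- 4 were 2-fold higher (Ddit4, Fkbp5, Mt1 and Mt2), against 280 of 15616 genes. In TBP-2-/- minus WT 1 was (Mt2), against 264 of 15220 genes. In the comparison of ob/ob with WT 1 was (Fkbp5), against 283 of 15087, and 0 passed the fit. Their median differences were 0.47 and 1.05 in the comparisons that include ob/ob TBP-2-/- muscle, against 0.04 over all genes in each, and those comparisons share that array. Mt2, a metallothionein, had intensities of 15839 in ob/ob TBP-2-/- muscle, 2895 in ob/ob, 4848 in TBP-2-/- and 1898 in WT muscle. Ddit4, a stress-induced inhibitor of mTORC1, had 32409, 9209, 12455 and 7668, likewise highest in ob/ob TBP-2-/- muscle. Per1 had its highest level in ob/ob muscle, as did Cdkn1a, Klf9 and, on its brightest probe, Fkbp5. Fkbp5, a chaperone partner of the glucocorticoid receptor, was 1.22 ± 0.20 in ob/ob minus WT. Its TBP-2 differences on the ob/ob and lean backgrounds depended on the probe, at -0.66 and -0.84 on the brightest. Another probe gave -0.28 and -0.96, and a further one 2.24 and 0.99. Temperature can entrain peripheral clocks. Of 6 measured temperature-responsive genes, only the cold-induced Rbm3 passed 2-fold, at 1.20 ± 0.20 in ob/ob TBP-2-/- minus TBP-2-/-. In that comparison 3.36% of all genes passed 2-fold either way. There Cirbp was at 0.84, Dnajb1 at -0.86, Hsph1 at -0.64, Hspa8 at -0.30 and Hsp90aa1 at -0.14.

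The genes whose centred levels over the 4 arrays lay nearest to those of Arntl, among 14906, were Pole, the catalytic subunit of DNA polymerase epsilon (distance 0.0726), Llgl2, a cell polarity gene (0.119), 2610028H24Rik (0.158), Fbxo31, a ubiquitin ligase subunit (0.164), and Tk1, a thymidine kinase (0.169). Those nearest to Dbp were Ndufaf5, an assembly factor of mitochondrial complex I (0.0703), Lbx2, a homeobox gene (0.0709), Hspe1, a mitochondrial co-chaperonin (0.0759), Cmss1 (0.0772) and the transcript NAP046244-1 (0.0791). The distance is Euclidean, in log2 units over 4 arrays, and says nothing of shared control.

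In bulk muscle, fewer cells of a type and less RNA per cell cannot be told apart. All 8 muscle fibre markers were well above background on every array, with summed levels of 8.67e+03 in ob/ob TBP-2-/-, 8.38e+03 in ob/ob, 8.3e+03 in TBP-2-/- and 9.35e+03 in WT muscle, in units of the 75th percentile. Markers of other cells were measured on every array too. The 6 tendon markers summed to 123, 92.6, 65.6 and 21.6 in that order and the 5 Schwann cell markers to 40.4, 26.9, 34.9 and 15.2, both lowest in WT muscle, where Per1 was lowest and Dbp highest. The 7 adipocyte markers summed to 257, 139, 324 and 214, higher without TBP-2 on each background, where Arntl was lower. The 5 macrophage markers summed to between 56.8 and 75.2, the 4 endothelial markers to between 8.77 and 9.92, and 2 of 3 erythroid markers to between 34.5 and 47.9. Their part in the clock gene differences was not tested.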

How the data were processed

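Total RNA of skeletal muscle was labelled with Cy3 and hybridised to 1 array per genotype, per the labels' protocols. The deposited probe intensity is Agilent Feature Extraction's processed signal (version 9.5.3.1), from which background and a spatial trend were removed within each array, with no scaling across arrays, per the file headers. The authors' deposited log2 value table was, by comparison with those signals, the same measurement scaled at each array's 75th percentile and centred on each probe's median (greatest difference 0.000137), so it is not independent; its column medians were 0.00913 for ob/ob TBP-2-/-, -0.0116 for ob/ob, -0.0621 for TBP-2-/- and 0.0912 for WT.

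Outlier spots were left out, spots of a probe averaged, and the level taken as log2 signal relative to the 75th percentile of its array (41174 probes). The brightest probe stood for a gene. Probes were named through GRCm38.p6 RefSeq accessions (24358), symbols (6300) or synonyms (2426), otherwise as in the files (8072), besides the 18 clock probes. Probe positions are mm8, per the file headers. A pairwise difference needed both arrays well above background. The additive fit (limma 3.58.1, R 4.3.3) used genes that 2 or more arrays measured well above background, and was checked on simulated data.

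All members were named, with up to 6 genes of each listed pathway by size of difference and the 5 genes nearest to Arntl and to Dbp. Some listed genes are not reported here. The members and lists were chosen with earlier results of these data known. Alternatives were quantile normalization, normexp background (offset 50), spike-in scaling, the value table, the median of a gene's probes, no filter on dim probes, outlier spots kept, a 1.5-fold threshold and, chosen after seeing the data, the percentile taken over spots. The precision is limited by the number of arrays.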

Additional observations from a re-analysis of the deposited data

Results flagged for a closer look

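For some clock genes the effect of 1 genotype had opposite signs on the 2 backgrounds of the other. With 1 array per genotype these differences were not tested. For Per1 the TBP-2 difference was -0.25 on the ob/ob and 0.61 on the lean background, a difference of -0.86. For Cry1 it was -0.36 and 0.24, a difference of -0.59, with the dimmer probe at 0.53 and 0.30, both upward. For Clock it was 0.11 and -0.07, a difference of 0.18, smaller than its error of 0.29. For Nr1d2 the TBP-2 difference was 0.34 and -0.09, a difference of 0.42, and the ob/ob difference was 0.14 without and -0.28 with TBP-2, also 0.42 apart. For Per2 the ob/ob difference was -0.29 without and 0.22 with TBP-2, a difference of -0.51, on a gene whose probes gave different patterns.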

How the results depend on the processing

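The counts of clock genes past 2-fold were at most 1 in the report. With the threshold at 1.5-fold they were 2 in TBP-2-/- minus WT, 1 in ob/ob TBP-2-/- minus ob/ob, and 3 for ob/ob against WT. Spike-in scaling, on 8 spike-in probes, shifted the median of all genes by 0.25 in TBP-2-/- minus WT, -0.50 in ob/ob TBP-2-/- minus ob/ob, 0.65 for ob/ob against WT and -0.10 in ob/ob TBP-2-/- minus TBP-2-/-. It then gave 2 clock genes past 2-fold in ob/ob TBP-2-/- minus ob/ob, 4 for ob/ob against WT, and 3 whose TBP-2 differences on the backgrounds lay at least 1 apart, against 0. In ob/ob minus WT, normexp and the median of a gene's probes each gave 0, Cry1 then being under 2-fold. With normexp and with spike-in scaling the additive fit used 1 common variance for all genes, unlike the main fit. The additive fit called 1 clock gene for TBP-2 (Arntl) and 1 for ob/ob (Dbp) with normexp, and 0 under every other alternative run. Over all genes it called 15 and 36, against 470 and 794 with normexp, 102 and 242 with spike-in scaling, 0 and 0 with quantile normalization (1613 and 2215 at an unadjusted p under 0.05), 12 and 16 with the median of probes, and 7 and 0 without the dim filter. Genes past 2-fold in ob/ob TBP-2-/- minus ob/ob, TBP-2-/- minus WT, ob/ob against WT and ob/ob TBP-2-/- minus TBP-2-/- numbered 157, 137, 192 and 207 with normexp, 2129, 2207, 2298 and 2460 without the dim filter, and 888, 593, 2209 and 544 with spike-in scaling, against 421, 398, 545 and 525. The split of higher and lower calls moved most with spike-in scaling, to 83 and 805, 509 and 84, 2140 and 69, and 222 and 322, against 296 and 125, 264 and 134, 283 and 262, and 280 and 245. Over the 8 other settings Arntl ran from -1.39 to -0.75 in ob/ob TBP-2-/- minus ob/ob and from -0.74 to -0.49 in TBP-2-/- minus WT, Per3 from -1.04 to -0.19 and from -0.49 to -0.17, and Dbp from -0.76 to -0.10 in the comparison of ob/ob with WT. Spike-in scaling moves every gene by the same amount, so differences smaller than that shift can turn sign by its construction. Apart from it, signs turned for Clock, Per2, Cry1 and Cry2 with the median of probes and for Nr1d2 in TBP-2-/- minus WT with quantile normalization. No paired analysis was possible because each genotype has 1 array and no replicate numbers are shared. Leaving out an array leaves no residual degrees of freedom. The cause of the other changes was not tested.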
